A study of Mus musculus with 2 samples.

Results

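The distal end of the imprinted Dlk1-Dio3 domain on mouse chromosome 12 carries one of the densest arrays of microRNA (miRNA) genes in the genome, running from Mir379 to Mir410 and on to Mir3072. It was described here in cerebral cortex, left side, from male mice of B6CASTF1/J, the F1 hybrid of the strains C57BL/6J and CAST/EiJ, at 25 days of age. Small-RNA libraries of 2 mice were sequenced, 1 library for each, and the labels number them as biological replicates 1 and 2 of a single group, for which they name no treatment. The labels do not say which strain was the mother. Members were all annotated miRNA genes on the + strand of chromosome 12 (mm10, GENCODE M21) that start at 109700000 or later and end at 109750000 or earlier. This rule used position alone and gave 39 genes of the 2202 in the files, from 109709060 (start of Mir379) to 109747960 (end of Mir3072).

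The miRNA genes of this cluster are transcribed from the chromosome inherited from the mother, together with long non-coding RNAs of the domain such as Meg3, Rian and Mirg. A miRNA hairpin is cut to a mature duplex, and one or both of its arms (5p and 3p) guide repression of mRNAs that pair with the seed, bases 2 to 8 of the mature strand. In neurons the cluster is best known through miR-134, which acts on the kinase mRNA Limk1 and limits dendritic spine size. Other members are also tied to dendrite growth and synapses, among them miR-329, miR-381 and miR-485, and hairpins of the miR-376 genes are known substrates of adenosine-to-inosine editing in brain. Editing was not measured here. Counts were given per gene, so reads of both arms of a hairpin are in one value and the arm that was read is not known.

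The mature sequences of the 5 most abundant members are shown first, since these genes held most of the reads of the cluster. Sequences come from RefSeq (GRCm38.p6), where 38 of the 39 members had a mature entry and 36 a hairpin entry. Each is written 5′ to 3′ with its seed in capitals. The other mature strands of Mir487b, Mir376c, Mir539 and Mir485, and Gm27379, were not used here.
mmu-miR-487b-5p: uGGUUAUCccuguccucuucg
mmu-miR-382-5p: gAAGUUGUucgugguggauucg
mmu-miR-382-3p: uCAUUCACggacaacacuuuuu
mmu-miR-541-5p: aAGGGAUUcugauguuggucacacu
mmu-miR-541-3p: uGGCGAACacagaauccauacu
mmu-miR-411-5p: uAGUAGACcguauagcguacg
mmu-miR-411-3p: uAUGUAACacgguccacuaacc
mmu-miR-379-5p: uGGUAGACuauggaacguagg
mmu-miR-379-3p: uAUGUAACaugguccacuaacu
These 9 strands carry 8 different seeds. Only the 3p strands of Mir411 and Mir379 share one, and they were identical at 20 of 22 bases, with the differences U10C and U22C (miR-379-3p first, counted from the 5′ end). Their 5p strands differed already within the seed, at G2A, and matched at 14 of 21 bases.

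Over the whole cluster, 71 mature entries held 65 distinct seeds, counted over these entries alone. The 6 seeds held by more than 1 member were each held by a pair. Beside Mir379 and Mir411 (3p), these were Mir379 and Mir1193 (5p), Mir1197 and Mir758 (5p), Mir494 and Mir410 (5p), Mir376b and Mir376c (5p), and Mir453 with the 5p strand of Mir496a. Members of a pair could stand far apart in level (CPM, counts per 1000000 of a library, mean of both libraries), as with Mir379 at 6357 CPM and Mir1193 at 63.4 CPM. Of the 65 seeds, 11 were also found in mature miRNAs outside the list of members, such as that of miR-329-3p (miR-362-3p) and that of miR-410-3p (miR-344d-3p and miR-344e-3p).

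A set of hairpins also shared a short stretch. Of 4 motifs searched on the transcribed strand of the hairpins, all chosen after the sequences had been read, UUCGCUU was the rarest in other hairpins. It was present in 10 of the 36 members with a hairpin entry (27.8%) and in 2 of the 969 other mouse hairpins of the table (0.206%). In 9 of the 10 it spanned the end of the annotated 5p strand, and in Mir329 it lay before that strand. Hairpins of Mir382, Mir154 and Mir369 illustrate it, with UUCGCUU in capitals.
Mir382: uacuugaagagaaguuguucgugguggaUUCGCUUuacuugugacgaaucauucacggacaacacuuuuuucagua
Mir154: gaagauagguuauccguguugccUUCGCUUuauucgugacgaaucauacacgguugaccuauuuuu
Mir369: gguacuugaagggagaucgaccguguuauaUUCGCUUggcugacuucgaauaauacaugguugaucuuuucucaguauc
These lie on the + strand at chr12:109733771-109733846, chr12:109738433-109738498 and chr12:109743418-109743496. The other 3 motifs were UACUUG in 10 of 36 members (27.8%) against 16 of 969 hairpins (1.65%), AGUAUC in 7 (19.4%) against 14 (1.44%) and GGUCCAC in 5 (13.9%) against 3 (0.31%). Levels of the genes with UUCGCUU ran from Mir410 (128 CPM) to Mir487b (18848 CPM). It was not found in the measured members below 100 CPM that had a hairpin entry. Mir544, also below 100 CPM, had no hairpin entry and was not searched. A link between the motif and level was not tested.

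The libraries held 2388379 counts on the genes' own strand in replicate 1 and 4447390 in replicate 2, which are the totals behind CPM. A floor of 3 counts was 1.26 CPM and 0.675 CPM. Reads with several genomic matches, 48.6% and 52.8% of mapped reads, were given to no gene. Neuronal marker miRNAs summed to 87705 and 74834 CPM in replicates 1 and 2, and the liver, muscle and heart markers Mir122, Mir206 and Mir208a to 74.5 and 83.4 CPM. Astrocyte markers were at 22236 and 33338 CPM, oligodendrocyte markers at 2726 and 3556 CPM and the endothelial Mir126a at 10782 and 22504 CPM. These were higher in replicate 2, while the neuronal sum, with 6 of its 9 genes measured, was lower. The part of such differences in the results on single members was not tested. In bulk tissue fewer cells of a type and less RNA per cell cannot be told apart. No list was at 0. Only counting error enters the intervals and floors, since copied reads were not told apart from separate molecules.

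The cluster took nearly the same share of the reads in both mice. It held 182503 counts in replicate 1, 7.641% of the total (95% exact Clopper-Pearson interval 7.608 to 7.675%), and 339665 counts in replicate 2, 7.637% (7.613 to 7.662%). The mean was 7.64% ± 0.0028 (SD, n = 2). This SD is narrower than the counting interval of either library, so it is a poor guide to the spread between mice. Of the reads of the whole Dlk1-Dio3 domain on this strand, from Meg3 onward, 42.9% and 43.2% came from this cluster. The 9 genes from Meg3 to Rtl1 held 2.73% and 1.97% of the total, and the 11 genes from Rtl1 to the start of the cluster held 7.43% and 8.08%. These parts shifted in opposite directions, and together the 20 genes held 10.16% and 10.05%, nearly the same share in both mice, as the distal cluster did. Their most abundant genes were Mir127 (54059.7 ± 5425 CPM), Mir770 (18489 ± 6019 CPM) and Mir433 (15279 ± 2099.6 CPM).

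Nearly every member was detected, and levels ranged 1652-fold among the measured ones. At least 10 counts in each library, called measured here, were found for 35 of the 39 genes, against 16 of 20 in the rest of the domain and 392 of all 2202 genes. Another pair had few counts: Mir1197 had 5 counts in replicate 1 and 3 in replicate 2, and Gm27379 had 0 and 3. Mir654 and Mir453 had 0 counts in both libraries, which allows up to 1.26 and 0.675 CPM. The median level of measured members was 510 CPM in replicate 1 and 514 CPM in replicate 2, beside 109 and 129 CPM over all measured genes. Of the 39 members, 15 reached a mean of 1000 CPM, 14 lay between 100 and 1000 CPM, and 6 measured genes lay below. The 15 held 93.4% ± 0.419 of the cluster's reads (SD, n = 2).

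**Figure D1:**
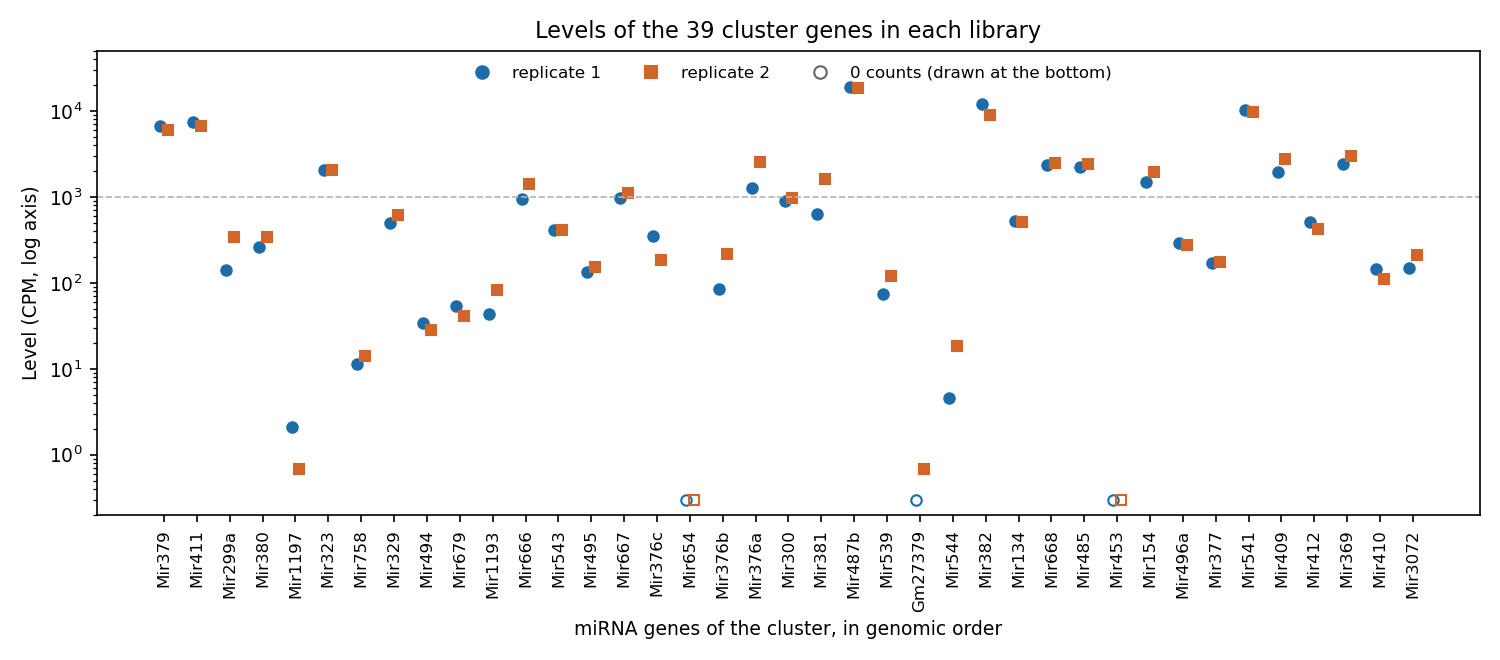
Level of each of the 39 genes in CPM (log axis) in genomic order, with replicate 1 as circles, replicate 2 as squares, open marks for 0 counts and a dashed line at 1000 CPM. High and low genes alternate along the array, from Mir487b at 18848 CPM to Mir654 and Mir453 at 0 counts, and the libraries lie close together for most genes.

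Mir487b was the most abundant member and the 10th of all 2202 genes. It had 45665 counts in replicate 1 and 82614 in replicate 2, or 19120 and 18576 CPM, and supplied 25.0% and 24.3% of the cluster. Its hairpin (chr12:109727333-109727414) shares 20 bases with that of Mir376b, so reads confined to that stretch could not be placed. Mir382 followed with 28729 and 40175 counts, or 12029 and 9033 CPM, lower in replicate 2 by more than any other gene of the leading 5. Mir541 was at 10180 and 9574 CPM (24315 and 42579 counts).

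The first genes of the array came next and stood close to each other. Mir411 had 17530 and 29594 counts, which gave 7340 and 6654 CPM. Its hairpin shares 21 bases with that of Mir758, so reads confined to that stretch could not be placed. Mir379, 1049 bases upstream of Mir411, had 15908 and 26922 counts, which gave 6661 and 6053 CPM. In each library Mir411 exceeded its neighbour by about the same factor, 1.10. The same 5 genes led in both libraries, and together they supplied 68.9% ± 5.01 of the cluster (SD, n = 2), 72.4% in replicate 1 and 65.3% in replicate 2.

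Below these, 10 further genes reached a mean of 1000 CPM. Mir369 was at 2692 ± 415 CPM, Mir668 at 2389 ± 80.5 CPM, Mir409 at 2347 ± 542 CPM and Mir485 at 2334 ± 129 CPM (SD, n = 2, here and below). These 4 lie within the Mirg transcript, and in each library Mir369 exceeded Mir668 and Mir668 exceeded Mir485. Mir409 was the lowest of the 4 in replicate 1 (1963 CPM) and the second highest in replicate 2 (2730 CPM). miR-485 acts at synapses. Its 3p strand, the only one used here, is shown with strands of other members studied in dendrites. Whether miR-485 acts at synapses through this strand was not examined. Which strand gave the counts is not known.
mmu-miR-485-3p: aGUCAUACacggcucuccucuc
mmu-miR-134-5p: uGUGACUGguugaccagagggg
mmu-miR-329-3p: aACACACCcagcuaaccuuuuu
mmu-miR-381-3p: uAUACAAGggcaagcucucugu
The other 6 genes at this level were Mir323 (2065 ± 9.05 CPM), Mir376a (1911 ± 922 CPM), Mir154 (1709 ± 297 CPM), Mir666 (1170 ± 334 CPM), Mir381 (1119 ± 690 CPM) and Mir667 (1037 ± 80.6 CPM). The spread was uneven among them: Mir323 was at 2058 and 2071 CPM, whereas Mir381 was at 631 and 1607 CPM.

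Members known from dendrites and synapses lay at different levels, with Mir485 and Mir381 above 1000 CPM and others below. Mir134 had 1261 counts in replicate 1 and 2288 in replicate 2, or 528 and 514 CPM, and ranked 129th of all genes. Mir329 was at 498 and 608 CPM (1189 and 2702 counts). Mir495 was lower, at 135 and 152 CPM. Mir369, Mir496a and Mir543, which are tied to neuronal differentiation in the embryonic cortex, differed widely, at 2692, 285 ± 12.0 and 412 ± 1.59 CPM.

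Other genes of 100 to 1000 CPM were Mir300 (931 ± 51.3 CPM), Mir412 (466 ± 62.8 CPM), Mir380 (301 ± 62.1 CPM), Mir376c (266 ± 114 CPM), Mir299a (239 ± 141 CPM), Mir3072 (178 ± 42.7 CPM), Mir377 (173 ± 1.99 CPM), Mir376b (151 ± 93.6 CPM) and Mir410 (128 ± 22.8 CPM). Mir410, for which the array is named together with Mir379, was thus near the lower end of this range. Measured genes below 100 CPM were Mir539 (96.4 ± 32.2 CPM), Mir1193 (63.4 ± 28.0 CPM), Mir679 (47.3 ± 8.34 CPM), Mir494 (31.3 ± 4.24 CPM), Mir758 (12.7 ± 2.02 CPM) and Mir544 (11.4 ± 9.62 CPM).

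**Figure D2:**
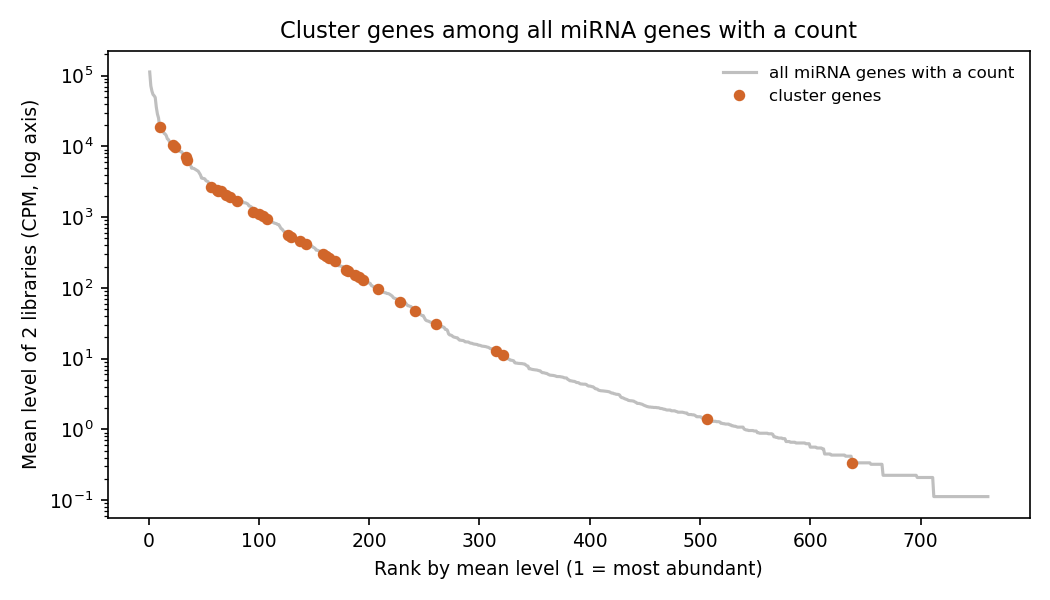
Mean level of all miRNA genes with a count against their rank (grey line, log axis), with the cluster genes as points. Of the members, 5 lie among the 50 most abundant genes and 14 among the first 100, and the others spread down to the genes with single counts.

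Levels were compared between the stretch upstream of the long non-coding RNA gene Mirg and Mirg itself. The 25 genes upstream of Mirg held 55.98% ± 1.48 of the cluster's reads and the 14 genes within Mirg (chr12:109729764-109749460) held 44.0% ± 1.48, with 22 and 13 of them measured. The median mean level of measured genes was 357 CPM upstream and 1709 CPM within Mirg, the higher of the medians, while the most abundant gene, Mir487b, lies upstream. By the annotation 9 members overlap an exon of Mirg and 5 lie in its introns, and both kinds held abundant genes: Mir382 is exonic and Mir541 intronic. Exonic genes held 25.4% ± 2.01 of the cluster and intronic genes 18.6% ± 0.528.

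Neighbours often stood far apart in level. Among the 34 adjacent pairs of measured genes, 23 differed by over 2-fold and 12 by over 10-fold in both libraries. Of the 13 pairs under 500 bases apart, 9 and 6 did so. Mir323 and Mir758, with 216 bases between them, differed by 182-fold in replicate 1 and 146-fold in replicate 2. Mir758 had only 27 and 63 counts, and its hairpin shares 21 bases with that of Mir411. Reads confined to that stretch were given to no gene, and how many this took was not measured. Mir487b and Mir539, 714 bases apart, differed by 260-fold and 156-fold. Mir382 and Mir134, 292 bases apart, differed by 22.8-fold and 17.6-fold. A few neighbours were alike, such as Mir668 and Mir485 (104 bases apart), at 1.04-fold and 1.01-fold.

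**Figure D3:**
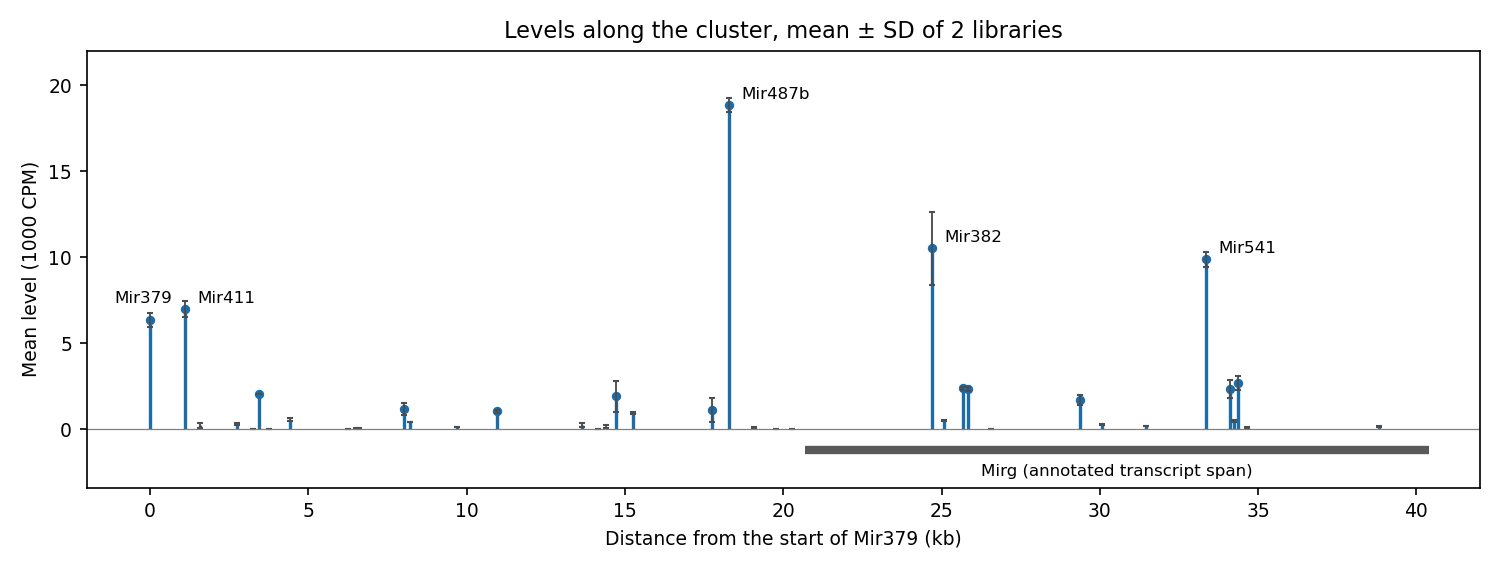
Mean level of each cluster gene (1000 CPM, bars ± SD of 2 libraries) against its distance in kb from the start of Mir379, with the annotated span of Mirg as a grey bar. The 5 most abundant genes are spread over the array, with Mir379 and Mir411 at its start, Mir487b before Mirg, and Mir382 and Mir541 within it.

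No reads ran against the array beyond the floor. On the opposite strand the 39 members together had 3 counts in replicate 1, all at Mir299a, and 0 in replicate 2. An annotated miRNA gene lies antisense to 5 members: Mir299b to Mir299a, Gm25750 to Mir380, Gm25252 to Mir376a, Gm44322 to Mir539 and Gm24321 to Mir409. These antisense genes had the same 3 and 0 counts on their own strand. The 5 members had 8818 and 27116 own-strand counts, but in the deposited column that joins both strands they had 0 and 1. Mir409, with 4689 and 12143 own-strand counts, is listed at 0 there in both libraries. The other 34 members had identical values in both columns.

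Replicate 2 was compared with replicate 1 to see how evenly the members kept their proportions between mice. Across the 35 measured members the log2 levels correlated at Pearson r = 0.979 and Spearman rho = 0.976, a description over genes that share both libraries and depths. The ratio of the summed counts, replicate 2 over replicate 1, was 0.9995 (95% exact interval 0.994 to 1.005). The log2 ratios (of CPM + 1) of single members had an SD of 0.577, beside 0.672 over all 392 measured genes. The median counting standard error (SE) was 0.0506 for members and 0.109 over all measured genes, so the SDs hold unlike counting error. In the rest of the domain, with 16 measured genes, the SD was 0.491.

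In a two-sided exact binomial test given the library totals, Benjamini-Hochberg adjusted over all 392 measured genes, 26 of the 35 members passed an adjusted p of 0.05, and over all genes 56.9% did. With a minimum of 100 counts in each library, 26 of 32 members passed, beside 80.2% of the 242 genes tested, nearly the same share. Of the 35 members 18 were higher in replicate 2 (background 34.2%) and 8 were lower (background 22.7%). The median log2 ratio of members was 0.11, and that of all measured genes 0.06. Past 1.5-fold were 9 of the 35 members, beside 27.6% of all measured genes, and past 2-fold were 5, beside 12.2%. Both shares of members (25.7% and 14.3%) lay near the background. This test covers counting error alone and compares 2 libraries, each from 1 mouse, so mouse and library cannot be told apart. With the spread between these libraries allowed for, in the exact test of edgeR with their common dispersion, none of the 35 members passed, beside 0.765% of all genes. The dispersion was estimated from the same 2 libraries taken as 1 group. The differences under test thus set it, and few genes could pass. Of the 35 members 3 had an unadjusted p under 0.05 in that test of edgeR, beside 19 of all 392 genes. The smallest adjusted p of a member there was 0.551, for Mir544.

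The members with the largest differences were higher in replicate 2. Mir376b had 202 counts in replicate 1 and 965 in replicate 2, or 84.6 and 217 CPM, a log2 ratio of 1.35 (counting SE 0.112, adjusted p = 6.7e-40 in the exact test). Mir381 had 1508 and 7145 counts, or 631 and 1607 CPM, and also a log2 ratio of 1.35 (counting SE 0.0409). Mir299a had 332 and 1508 counts, or 139 and 339 CPM, a log2 ratio of 1.28 (SE 0.0875). Mir376a followed at 1.03 (SE 0.0296), with 3006 and 11399 counts. Mir544, singled out after its values were seen, had only 11 and 81 counts and a log2 ratio of 1.78 (SE 0.464). These 5 genes were all the members past 2-fold, in either direction. Between 1.5-fold and 2-fold lay Mir1193, Mir539 and Mir666, also higher in replicate 2, at log2 ratios of 0.92, 0.69 and 0.59.

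Lower in replicate 2 were Mir376c, Mir382 and Mir410 by the largest amounts. Mir376c had 828 counts in replicate 1 and 824 in replicate 2, although replicate 2 was sequenced more deeply, so its level fell by 0.90 on the log2 scale (counting SE 0.071, from 347 to 185 CPM). It was the only member lower by over 1.5-fold. Mir382 fell by 0.41 (SE 0.0111) and Mir410 by 0.36 (SE 0.101, 344 and 497 counts). The other 5 members that passed in this direction, Mir412, Mir411, Mir379, Mir541 and Mir487b, had log2 ratios from −0.28 to −0.04. All of the leading 5 genes were thus among those lower in replicate 2, and their joint share of the cluster was the smaller one there.

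**Figure D4:**
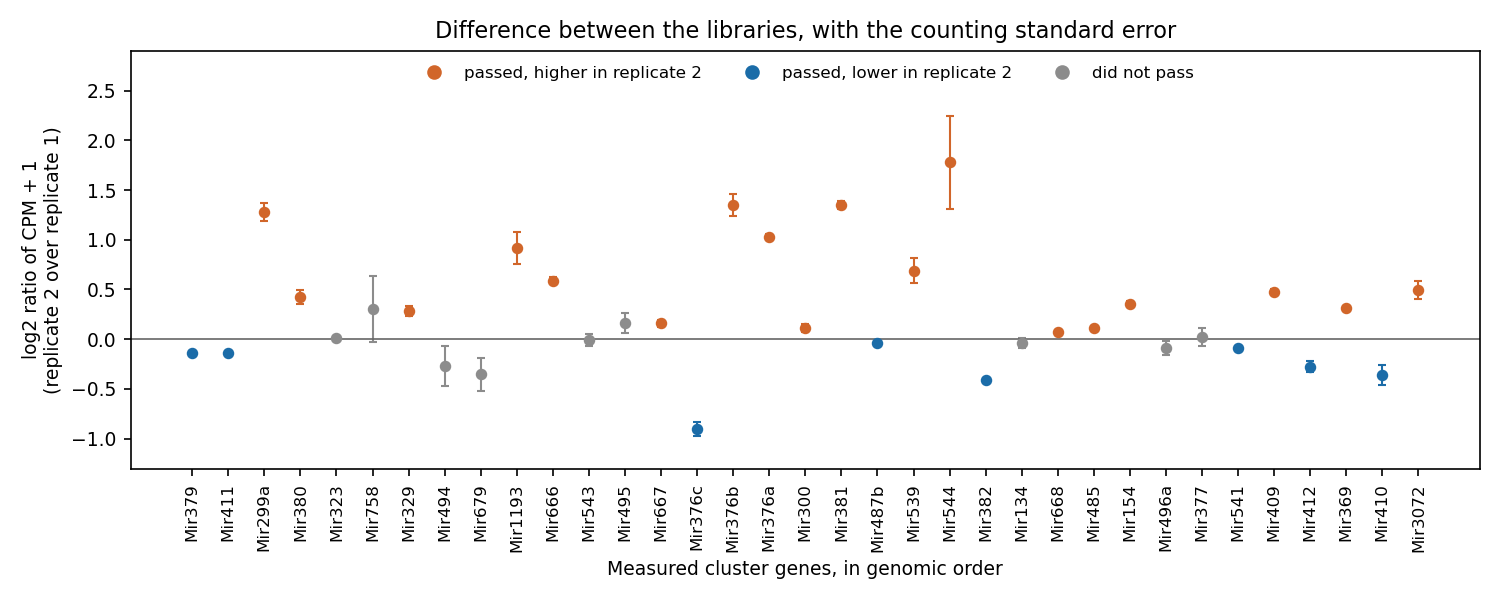
log2 ratio of CPM + 1 (replicate 2 over replicate 1) for the 35 measured genes in genomic order, with the counting SE as bars and colours for members that passed the exact binomial test as higher or lower. Mir544, Mir376b, Mir381, Mir299a and Mir376a stand highest and Mir376c lowest, while the abundant Mir379, Mir411, Mir487b and Mir541 lie just below 0.

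Near relatives in sequence did not always move alike. Strands that closely match between miR-376 genes, and miR-300-3p, which closely matches miR-381-3p (shown above), follow with their seeds in capitals. Other strands of these genes were not compared.
mmu-miR-376a-3p: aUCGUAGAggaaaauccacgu
mmu-miR-376b-3p: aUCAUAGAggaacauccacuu
mmu-miR-376b-5p: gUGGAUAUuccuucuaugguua
mmu-miR-376c-5p: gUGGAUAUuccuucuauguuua
mmu-miR-300-3p: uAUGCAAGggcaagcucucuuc
The 3p strands of Mir376a and Mir376b differ at G4A, A13C and G20U, the first of them within the seed, and both genes were over 2-fold higher in replicate 2. The 5p strands of Mir376b and Mir376c differ only at G19U, yet Mir376b was 2.57-fold higher and Mir376c was at 0.534 of its level in replicate 1. Their hairpins share a stretch of 31 bases, which cannot hold the whole 5p strands because these differ at G19U. Reads confined to the stretch match both genes and were assigned to neither. How many reads this took was not measured, so both ratios are uncertain. miR-300-3p and miR-381-3p differ at G4A, U21G and C22U, and Mir300 was 1.08-fold and Mir381 2.54-fold higher. Mir379 and Mir411, by contrast, kept their proportion, at 0.909 and 0.907 of their levels in replicate 1.

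For 9 of the 35 measured members the libraries did not differ past the threshold. Mir323 had a log2 ratio of 0.01 (SE 0.0255, adjusted p = 0.804 in the exact test) and Mir134 one of −0.04 (SE 0.0506, adjusted p = 0.567). Mir543, Mir377, Mir495, Mir496a, Mir758, Mir494 and Mir679 also did not pass. For Mir758 and Mir494, with 27 to 126 counts, a difference of the size seen for Mir329 (log2 ratio 0.29) would not have been detectable at this depth. Among the remaining members that passed as higher, Mir3072 (0.49), Mir409 (0.48), Mir380 (0.42), Mir154 (0.36) and Mir369 (0.32) exceeded Mir329, while Mir667 (0.16), Mir485 (0.11), Mir300 (0.11) and Mir668 (0.07) were closest to 0. Mir300 and Mir668 no longer passed with TMM scaling or DESeq2 size factors, and Mir485 did not with the latter.

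The bounds of the window lie in stretches with few miRNA genes. The last annotated miRNA gene before it, Mir882, ends 26.8 kb upstream of Mir379 and had 0 counts in both libraries, and before that Mir370, 90.7 kb upstream, was at 1593 ± 501 CPM. The next gene on this strand after the window, Gm27299, starts 926 kb beyond Mir3072 and also had 0 counts. Just inside the bounds lay Mir379 and Mir3072.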

How the data were processed

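MicroRNA sequencing covered 1 library from each of 2 mice of 1 group. The authors deposited raw read counts per gene (mm10, GENCODE M21), as their readme text states. For the aligner and counter, the names were not given in the sources used here. Columns carry no header and were read, from their values, as both strands, own strand and opposite strand, and own-strand counts were used. Rows that name no gene stayed out of totals; reads with no feature were 7.36% and 6.91% of mapped reads. Genes needed 10 counts per library to be tested. A quasi-likelihood fit was not possible with 1 group, so edgeR 4.0.16 gave TMM factors and an exact test, and DESeq2 1.42.0 gave size factors (R 4.3.3, SciPy 1.17.1). log2 levels used a pseudocount of 1 CPM. Members at 1000 CPM or more, and the 3 members with at least 100 counts that differed most in each direction, are given in full. Shared stretches were sought among GENCODE hairpins on both strands, leaving out overlapping genes. The members and lists were chosen with earlier results of these data known. Alternatives were other scalings, count minimums of 1 and 100, a pseudocount of 0.1, both strands together, other denominators, and leaving out each library or members with shared sequence.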

Additional observations from a re-analysis of the deposited data

How the results depend on the processing

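The share of counts held by the cluster (7.64%) was 7.75% with both strands together and 8.61% without the most abundant gene in the totals. It was 3.22% of all mapped reads. Without the 5 members that share 20 or more bases with another gene, Mir487b among them, it was 5.01%. All but the first of these values follow from their construction. For the first, both the total and the summed counts of the members were smaller. Each library alone gave 7.637% and 7.641%, and 65.3% and 72.4% for the leading 5 genes of the cluster. The ratio of summed counts was 0.960 with TMM and 0.956 with DESeq2 scaling, 1.02 without the members that share sequence and 1.01 without Mir487b. The median log2 ratio (0.11) was 0.055 with TMM and 0.049 with DESeq2 scaling. Each scaling changes only the library sizes, so it lowered the log2 ratios of all members by nearly the same amount. Why these sizes differ from the totals was not tested. Members past the exact test numbered 20 to 26 of the 30 to 37 tested, beside 30.5% to 80.2% of all genes tested. The exception was the exact test of edgeR, where 0 members passed, beside 0.765% of all genes. The dispersion in edgeR comes from the same 2 libraries. Higher and lower members were 16 and 9 with TMM, and 15 and 9 with DESeq2 size factors. Of all genes tested, 56.1% and 55.9% passed in either direction under these scalings. No called member changed sign under these scalings. Mir679 passed as lower under both. Of the 15 levels of 1000 CPM or more, 10 moved with both strands together, beyond the spread between libraries, and none with either scaling. With both strands together Mir376a and Mir409 went to 0. All other levels of the 15 rose, since their counts were unchanged and the totals were smaller (2221800 and 4067247). Measured members numbered 30 to 36 under the other minimums and columns. No paired analysis was possible because the labels give a single group. Counts limit Mir544, Mir758, Mir1197 and Gm27379 most.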
